A study of Mus musculus with 8 samples.

Results

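Dopamine neurons of the midbrain carry a set of receptors, channels and other proteins that shape how they fire, and 7 of the genes that encode them are described here: Drd2, Chrna6, Chrnb3, Chrna4, Kcnj6, Slc10a4 and Calb1. They were taken by symbol from the deposited expression table, where each had 1 row, so that they make up 7 of its 54532 genes. The samples were 8 RNA-seq libraries of the substantia nigra of male C57BL/6 mice, in 4 groups of 2. The control group was labelled WT with the treatment control. The vector group received AAV-α-synuclein, an adeno-associated virus carrying α-synuclein, the AKG group received α-ketoglutarate, and the combined group received AAV-α-synuclein+AKG. The series' title places the compound in the diet and the mice in a model of Parkinson's disease. The animals' age, the dose, the time after injection, the promoter of the vector, and any empty vector in control and AKG mice are not stated in the labels. Nothing in the labels says whether the libraries of a group came from separate animals, so the p-values measure the spread between these libraries, which may be technical.

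Dopamine neurons fire on their own as pacemakers. Drd2 encodes the D2 dopamine receptor, which on these neurons acts as an autoreceptor: dopamine binding to it activates Gi/o proteins, opens potassium channels and slows firing. Kcnj6 encodes GIRK2, a subunit of those potassium channels. Chrna6, Chrnb3 and Chrna4 encode the α6, β3 and α4 subunits of nicotinic acetylcholine receptors, through which acetylcholine excites the cells; α6 and β3 are restricted to few brain regions, while α4 is widespread and abundant in the thalamus. Slc10a4 encodes an orphan member of the bile acid transporter family found on vesicles of monoamine and cholinergic neurons. Calb1 encodes calbindin, a calcium-binding protein that marks a subset of dopamine neurons and many other neurons.

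In brief, Slc10a4 and Chrna6 had lower FPKM (fragments per kilobase of gene, scaled to library depth) in both libraries of the vector, AKG and combined groups than in both control libraries, at 27.7% and 34.1% of the control mean in the vector group. Chrnb3 was lower by less, and its AKG libraries lay on both sides of a control library. Chrna4 and Kcnj6 had higher means outside control, but without the first control library the Chrna4 differences were -0.0034 to 0.16 and the Kcnj6 differences 0.17 to 0.29 on the log2 scale. The Drd2 differences changed sign with the control library used, at -0.62 to -0.44 without the first and 0.13 to 0.30 without the second. Calb1 had group means near those of control. None of the 7 genes passed an adjusted p of 0.05 (limma on log2(FPKM + 1), Benjamini-Hochberg over all tested genes) in any of 6 comparisons. In bulk tissue, fewer cells of a type and less RNA per cell cannot be told apart.

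The libraries held 16544190.0 to 19125423 reads, recovered from the deposited values. The first control library stood apart: its mean Spearman correlation with the other libraries, across genes, was 0.926, against 0.971 to 0.975 for the rest. Values without it are given beside the results of single genes that move most with it. The tissue label was checked with Th, tyrosine hydroxylase, which makes the dopamine precursor, and Slc6a3, the dopamine transporter. Th was at 38.8 and 38.8 FPKM in control, 12.6 and 16.1 in vector, 10.7 and 10.4 in AKG, and 14.6 and 16.6 in combined libraries. Slc6a3 was at 24.1 and 28.5, 1.43 and 3.87, 0.801 and 0.615, and 4.99 and 11.9 FPKM in the same order. Both dopamine neuron genes were thus present in every library and lowest in the AKG group. Of the 13716 genes that averaged 1 FPKM or more, Th in the AKG group was the 1 gene called in the 6 comparisons.

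The genes lie on 6 chromosomes (GRCm38, as in the deposited table). Chrna6 (ENSMUSG00000031491, chr8:27403212-27413944, minus strand) and Chrnb3 (ENSMUSG00000031492, chr8:27368711-27399730, plus strand) are neighbours whose 3' ends face each other, 3481 bases apart. Drd2 is ENSMUSG00000032259 (chr9:49340627-49408177, plus), Chrna4 is ENSMUSG00000027577 (chr2:181018380-181043546, minus) and Slc10a4 is ENSMUSG00000029219 (chr5:73006883-73012955, plus). Calb1 is ENSMUSG00000028222 (chr4:15881264-15908064, plus) and Kcnj6 is ENSMUSG00000043301 (chr16:94748636-94997701, minus). The span of Kcnj6 is overlapped by that of the antisense gene AC165271.1. With no strand setting stated, reads in any exon stretch that both genes share cannot be assigned to either. Whether their exons overlap was not examined.

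Sequence upstream of the start is shown for Slc10a4 and Chrna4, which of the 7 genes had the lowest and highest log2 differences from control in the vector and AKG groups. Both come from RefSeq (GRCm38.p6), read 5′ to 3′ on the gene's strand, without bases that GENCODE M21 places in an exon of the gene. The Slc10a4 stretch is chr5:73006654-73006882 (plus strand) and the Chrna4 stretch is chr2:181039306-181039427 (minus strand), which lies within the span of the Chrna4 gene in the table.
Slc10a4: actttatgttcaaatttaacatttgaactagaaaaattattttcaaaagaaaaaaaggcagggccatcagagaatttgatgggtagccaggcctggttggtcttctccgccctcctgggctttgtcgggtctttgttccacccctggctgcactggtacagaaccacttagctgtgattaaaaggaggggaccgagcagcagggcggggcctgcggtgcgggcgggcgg
Chrna4: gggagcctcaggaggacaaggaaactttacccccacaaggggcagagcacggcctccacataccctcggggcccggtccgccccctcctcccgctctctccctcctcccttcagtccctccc
The GC content was 51.5% in the Slc10a4 stretch and 68.0% in the Chrna4 stretch. RefSeq windows of 250 bases were at hand for 4 of the 7 genes (Slc10a4, Chrna4, Drd2 and Kcnj6, the last with 2 starts). They were searched on both strands for AAAGGTCA, the monomer element of NR4A factors, for the bicoid-type TAATCC, for the forkhead-type TGTTTAC and for TATAAA. None of these letters occurred in the 5 windows, and they occurred in 1.34%, 6.25%, 3.17% and 12.4% of all 32851 RefSeq windows of that length.

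Nicotinic subunits are related in sequence, which bears on how reads are shared between them. The longest run of bases that Chrna4 shared with another subunit was 47 bases in exon 5 (chr2:181028997-181029043, minus strand, coding), also found in exon 6 of Chrna2 (chr14:66149316-66149362, plus). For Chrna6 it was 27 bases in exon 5 (chr8:27407095-27407121, minus, coding), also found in Chrnb2 (chr3:89761272-89761298, minus).
Chrna4 and Chrna2: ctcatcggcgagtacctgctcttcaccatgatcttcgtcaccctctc
Chrna6 and Chrnb2: tacaccatcaacctcatcatcccctgc
The longest run of Chrnb3, shared with Chrna3, had 19 bases. Exact runs this short cover a small stretch of each gene.

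Read depth differed widely among the 7 genes. Calb1 had 3114 to 4106 reads per library, Chrna4 458 to 1530 and Drd2 294 to 513. Chrnb3 had 74 to 306, Slc10a4 35 to 258, Chrna6 41 to 259 and Kcnj6 52 to 177, so the last 4 carry more counting error. In mean FPKM over the 8 libraries, a scale per gene length, the order was Calb1 at 41.9, Chrna4 at 14.1, Drd2 at 7.65, Slc10a4 at 3.04, Chrna6 at 2.17, Chrnb3 at 1.56 and Kcnj6 at 0.844. Kcnj6 lay below the 1 FPKM mean required for testing, so 6 of the 7 genes were tested and its values come from a fit without that filter.

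**Figure D1:**
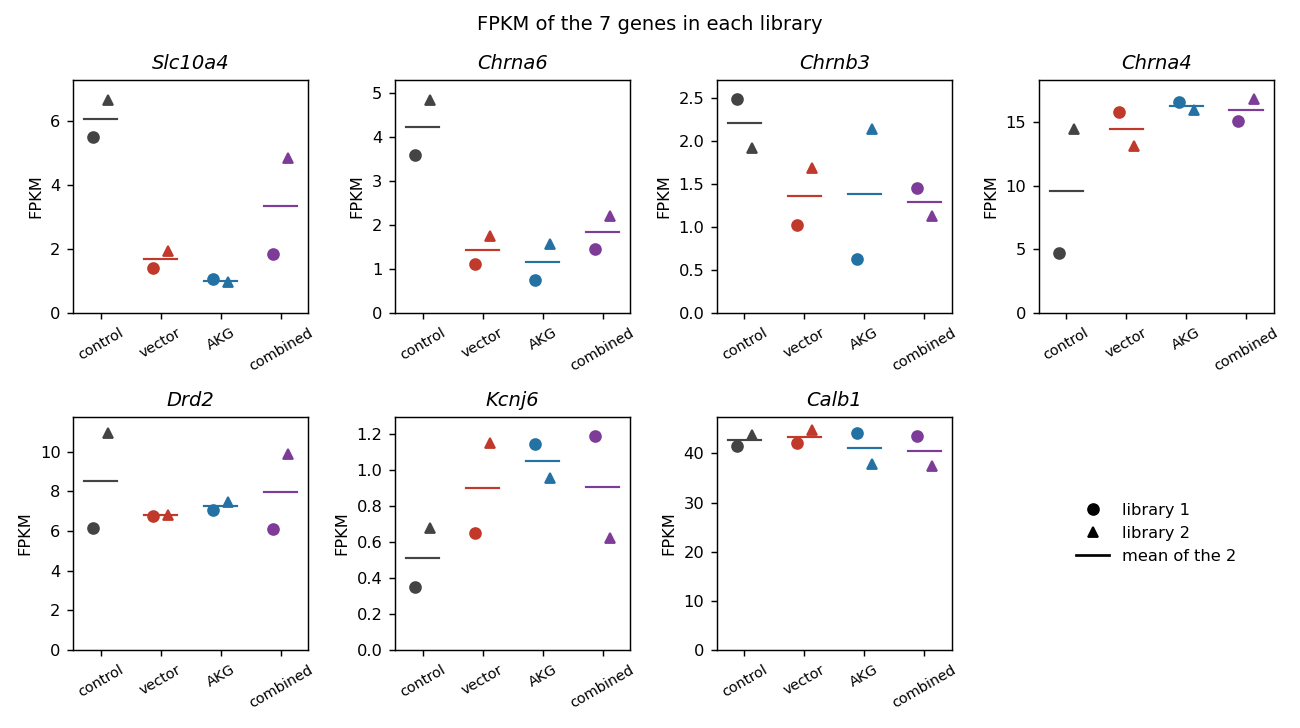
FPKM of the 7 genes in each library (y axis, linear, from 0) by group (x axis), with circles for library 1, triangles for library 2 and a line at their mean. Slc10a4 and Chrna6 are higher in both control libraries than in every other library, and Chrna4 is low in the first control library alone.

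Drd2, the D2 receptor, was at 6.14 and 11 FPKM in the control libraries. It was at 6.78 and 6.80 in vector, 7.07 and 7.49 in AKG, and 6.10 and 9.88 in combined libraries. The control libraries differed more from each other than the group means did, and every group overlapped control. The log2 difference from control was -0.25 ± 0.27 (SE) in the vector group, with a 95% interval of -0.89 to 0.40 (limma adjusted p = 0.602). For AKG it was -0.16, with an interval of -0.81 to 0.49 (limma adjusted p = 0.756), and for combined -0.07, with an interval of -0.72 to 0.58 (limma adjusted p = 0.901). The direction turned on which control library was used: without control library 1 the vector, AKG and combined differences were -0.62, -0.53 and -0.44, and without control library 2 they were 0.13, 0.21 and 0.30. Summed FPKM of 16 striatal projection neuron markers, cells that also express Drd2, was 247 in the second combined library and 156 to 179 in the others, and its part in the high Drd2 value there was not tested. Its Pearson correlation with Drd2 was 0.389 over the 8 libraries and 0.459 without control library 1. The sum of 22 dopamine neuron identity genes had correlations of 0.861 and 0.893 with Drd2. Th and Slc6a3 were a small part of that sum. Drd2 had correlations of 0.303 and 0.731 with Th, and of 0.419 and 0.747 with Slc6a3, in the same order. Among the 5 dopamine receptor genes in the table, 2 were tested. The other, Drd1, was at 1.37 and 1.14 FPKM in control and 0.877 to 1.48 elsewhere, and neither gene was called.

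Chrna6, the α6 nicotinic subunit, was at 3.60 and 4.85 FPKM in control, 1.12 and 1.76 in vector, 0.766 and 1.58 in AKG, and 1.47 and 2.21 in combined libraries. The 6 libraries outside control lay below both control libraries, while the vector, AKG and combined values overlapped one another. The group means were 34.1%, 27.8% and 43.6% of the control mean. On the log2 scale the differences from control were -1.10 ± 0.25 (SE; 95% interval -1.69 to -0.51; limma adjusted p = 0.294) in the vector group and -1.28 ± 0.25 (-1.87 to -0.69; limma adjusted p = 0.269) in the AKG group. The combined group differed by -0.88 ± 0.25 (-1.47 to -0.29; limma adjusted p = 0.349). Without control library 1 these were -1.27, -1.45 and -1.05, and without control library 2 they were -0.93, -1.11 and -0.71.

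Chrnb3, the β3 subunit and chromosomal neighbour of Chrna6, was at 2.49 and 1.92 FPKM in control, 1.03 and 1.68 in vector, 0.631 and 2.14 in AKG, and 1.45 and 1.13 in combined libraries. Both vector and both combined libraries were below both control libraries, but the second AKG library lay between the control libraries. The differences from control were -0.45 ± 0.31 (limma adjusted p = 0.418), -0.50 ± 0.31 (0.393) and -0.48 ± 0.31 (0.447) in the vector, AKG and combined groups. With 1 library left out the vector difference ranged from -0.65 to -0.25, and voom on recovered reads gave -0.74, -0.94 and -0.76, none of which passed. Leaving out the first AKG library moved the AKG difference to -0.02, and leaving out the second moved it to -0.97.

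Chrnb3 is also expressed in the medial habenula, a cholinergic nucleus next to the thalamus. The summed FPKM of 9 medial habenula markers was 119 and 82.9 in control, 55.4 and 71.3 in vector, 43.5 and 109 in AKG, and 60.9 and 65.5 in combined libraries. Over the 8 libraries the Pearson correlation of Chrnb3 with that sum was 0.957 (0.939 without control library 1, n = 7), against 0.673 for Chrna6 and 0.416 for Slc10a4. This comparison was made after its values were seen, and the points share a library's depth and dissection. The second AKG library was high in Chrnb3 and in the habenula subunits Chrna3 (7.60 FPKM) and Chrnb4 (6.71 FPKM), and the part of these cells in the Chrnb3 values was not tested.

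Chrna4, the α4 subunit, was at 4.72 and 14.4 FPKM in control, 15.8 and 13.1 in vector, 16.5 and 15.9 in AKG, and 15.1 and 16.8 in combined libraries. The first control library was the low value, and the other 7 libraries lay between 13.1 and 16.8 FPKM. Both AKG and both combined libraries were above both control libraries, whereas the vector libraries overlapped control. The differences from control were 0.71 ± 0.40 (limma adjusted p = 0.350) for vector, 0.88 ± 0.40 (0.298) for AKG and 0.85 ± 0.40 (0.373) for combined. They rested on 1 library: without control library 1 they were -0.0034, 0.16 and 0.13. With control library 1 as the only control they were 1.43, 1.59 and 1.56.

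Markers of the thalamus moved with Chrna4. The summed FPKM of 12 thalamus markers was 182 and 323 in control, 421 and 333 in vector, 457 and 463 in AKG, and 376 and 454 in combined libraries. Its Pearson correlation with Chrna4 was 0.955 over the 8 libraries and 0.898 over the 7 without control library 1, and its part in the Chrna4 values was not tested. The likeness was not particular to thalamus markers: the summed pacemaking and firing channels had correlations of 0.991 and 0.956 with Chrna4, and the summed D2 and GIRK partners 0.992 and 0.929.

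**Figure D2:**
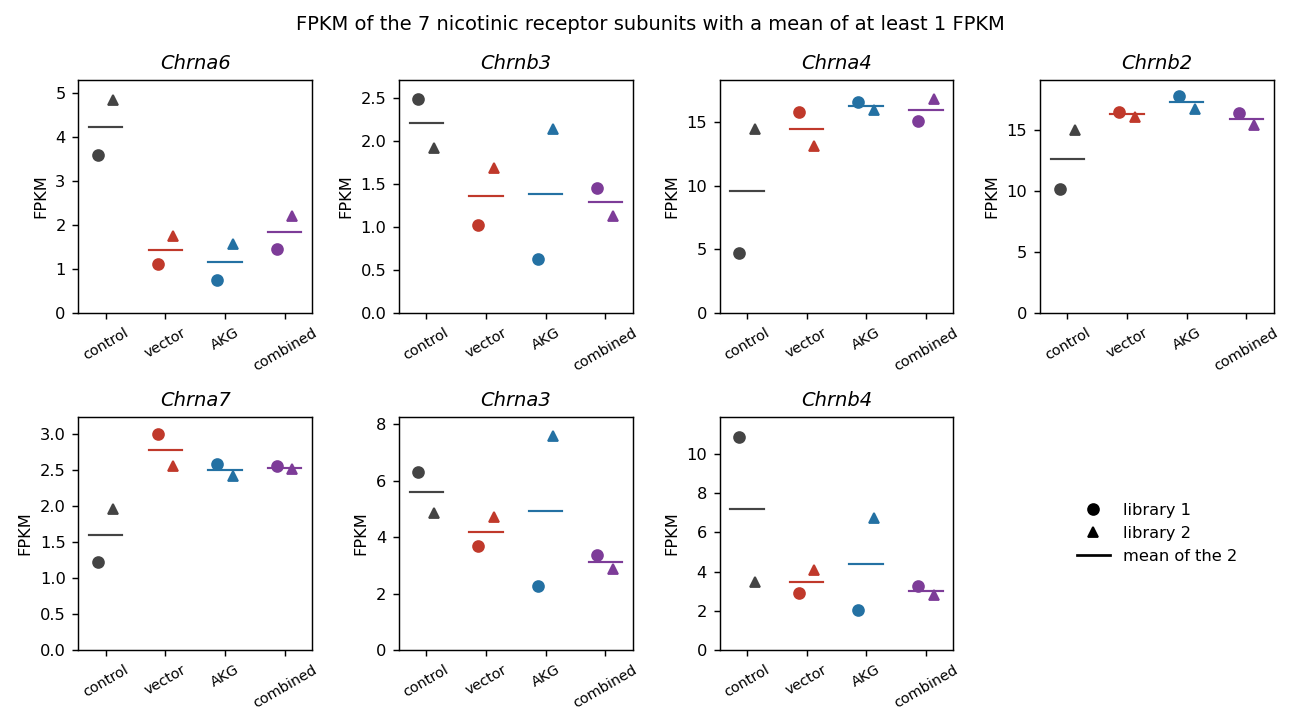
FPKM (y axis, linear, from 0) of the 7 tested nicotinic subunit genes, by group (x axis), with circles for library 1, triangles for library 2 and a line at their mean. Chrna6 is highest in control, Chrna4, Chrnb2 and Chrna7 are lowest in the first control library, and Chrnb3, Chrna3 and Chrnb4 spread widely between the AKG libraries.

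Of 16 nicotinic subunit genes in the table, 7 were tested and none was called in any comparison. In the vector group 4 were below and 3 above control, and the same counts held in the AKG and combined groups. Chrnb2, the usual β partner of α4, differed from control by 0.37 ± 0.17 (SE) in the vector group and 0.45 ± 0.17 in the AKG group. Chrna7, which forms receptors on its own, differed by 0.55 ± 0.16 and 0.44 ± 0.16. Chrnb2 and Chrna7 were lowest in the first control library, as Chrna4 was, and their differences without it are not given here. Of 10 genes for nicotinic receptor assembly and modulation, 9 were tested, with 3 below and 6 above control in the vector group and 4 below and 5 above in the AKG group. Their values included Ly6h, which holds α7 receptors back from the cell surface, at -0.31 and -0.42, and none of the 9 was called.

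Kcnj6, the GIRK2 channel subunit, was at 0.353 and 0.677 FPKM in control, 0.653 and 1.15 in vector, 1.14 and 0.959 in AKG, and 1.19 and 0.623 in combined libraries. Both AKG libraries were above both control libraries, and the vector and combined libraries overlapped control. In the fit without the filter on low values the differences from control were 0.32 ± 0.22 (limma adjusted p = 0.584), 0.44 ± 0.22 (0.532) and 0.32 ± 0.22 (0.634) in the vector, AKG and combined groups. Without control library 1 they were 0.17, 0.29 and 0.17, and over all libraries left out in turn the vector difference ranged from 0.13 to 0.51 and the combined difference from 0.11 to 0.54. Limma's voom on recovered reads, which adds no FPKM pseudocount, gave 0.82, 1.11 and 0.84, and Kcnj6 passed in none of these fits. The antisense gene AC165271.1 was at 0.173 and 0.408 FPKM in control, 1.17 and 0.687 in vector, 1.67 and 1.62 in AKG, and 1.33 and 0.606 in combined libraries. It was lowest in control, as Kcnj6 was in its first control library, and its Pearson correlation with Kcnj6 was 0.736 over the 8 libraries and 0.535 without control library 1.

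The partners of D2 receptors and GIRK channels were mixed. Of 27 listed genes 26 were tested, with 7 below and 19 above control for vector, 8 and 18 for AKG, and none called. Kcnj3, which encodes GIRK1, differed by 0.62 ± 0.21 in the vector group and 0.66 ± 0.21 in the AKG group. Rgs10, an accelerator of Gi/o signal shut-off, differed by -0.63 ± 0.15 and -0.52 ± 0.15. The list's median was 0.26 in the vector group, and 0.10 without control library 1.

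Channels of pacemaking and firing leaned one way. Of 37 listed genes 36 were tested, and 35 were above control for vector, 35 for AKG and 33 for combined, with medians of 0.50, 0.57 and 0.48. None was called. Hcn4, a channel of the hyperpolarization-activated current, differed by 1.09 ± 0.26 in the AKG group, and Cacna1c, an L-type calcium channel, by 0.78 ± 0.24 and 0.90 ± 0.24 in the vector and AKG groups. Without control library 1 the list's medians were 0.22, 0.26 and 0.20, and with a trend on gene length removed they were 0.28, 0.38 and 0.27, where the medians of all tested genes were -0.01, -0.02 and -0.02. The combined group split evenly against the vector group, with 18 genes below and 18 above. Against AKG 29 genes were below and 7 above (median -0.06), and the interaction was below 0 for 34 genes and above for 2 (median -0.54). Of all tested genes, 49.2% had an interaction below 0. The interaction adds the control mean, so low values in control library 1 lower it. The list summed to 336 FPKM in that library and 558 to 676 in the others, and its interaction without that library was not computed.

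Slc10a4, the vesicular orphan transporter, was at 5.51 and 6.66 FPKM in control, 1.41 and 1.96 in vector, 1.06 and 0.981 in AKG, and 1.86 and 4.86 in combined libraries. The 6 libraries outside control lay below both control libraries. The AKG libraries were the lowest, and the second combined library came closest to control. AKG and vector were not compared in a fit. The 95% ranges from read counting overlapped, at 0.758 to 1.43 FPKM in AKG library 1 and 1.07 to 1.84 in vector library 1. The group means were 27.7%, 16.7% and 55.2% of the control mean. The differences from control were -1.40 ± 0.31 (SE; 95% interval -2.14 to -0.66; limma adjusted p = 0.294) in the vector group and -1.81 ± 0.31 (-2.54 to -1.07; limma adjusted p = 0.269) in the AKG group. The combined group differed by -0.79 ± 0.31 (-1.52 to -0.05; limma adjusted p = 0.350), which was -1.31 without the second combined library and -0.27 without the first. With control library 2 left out, the library that stood apart was the only control, and the AKG difference was -1.69. Of 7 SLC10 family genes in the table, 2 were tested. The other, Slc10a3, differed by -0.31 ± 0.17 in the vector group and -0.24 ± 0.17 in the AKG group and was not called.

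Calb1, calbindin, was at 41.6 and 43.8 FPKM in control, 42.0 and 44.8 in vector, 44.3 and 37.9 in AKG, and 43.6 and 37.5 in combined libraries. All 8 values lay between 37.5 and 44.8 FPKM and every group overlapped control. The differences from control were 0.02, with a 95% interval of -0.27 to 0.32 (limma adjusted p = 0.919), -0.06, with an interval of -0.36 to 0.24 (0.809), and -0.08, with an interval of -0.37 to 0.22 (0.760). All 15 listed EF-hand calcium-binding genes were tested, 10 of them below control for vector and 10 for AKG, and none was called. Cabp7 differed by -0.24 ± 0.14 and -0.49 ± 0.14, and S100b, an astrocyte protein, by -0.34 ± 0.16 and -0.43 ± 0.16.

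**Figure D3:**
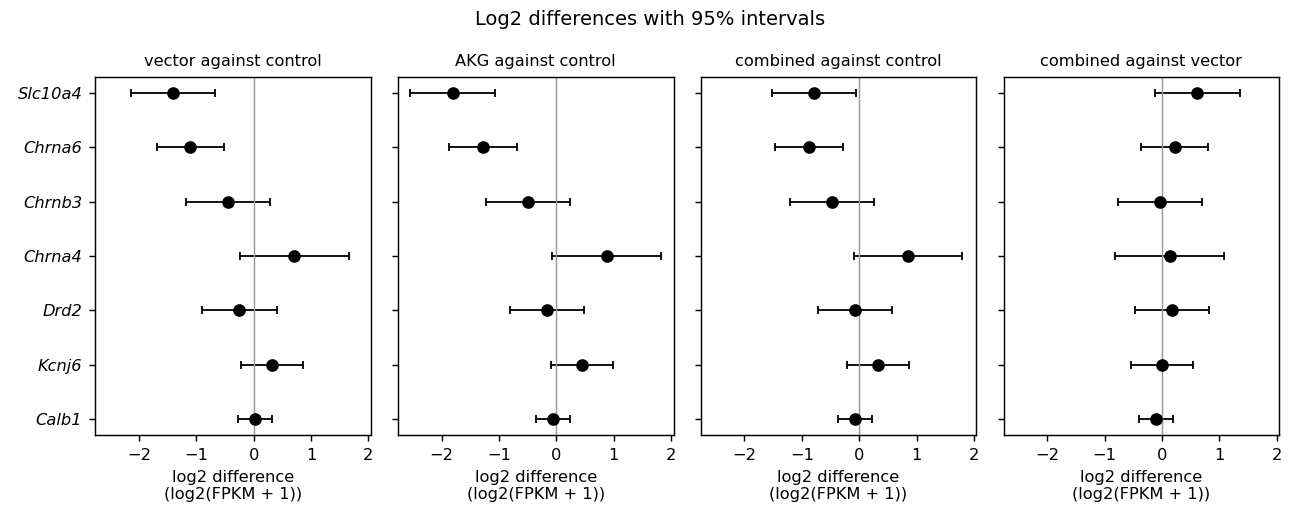
Log2 differences on the log2(FPKM + 1) scale (x axis) for the 7 genes (y axis) in 4 comparisons, with points for the limma estimate and bars for its 95% interval. Intervals of Slc10a4 and Chrna6 lie below 0 in the 3 comparisons with control, and no gene's adjusted p was under 0.05.

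Against control, 3 of the 7 genes (Slc10a4, Chrna6 and Chrnb3) had both vector libraries below both control libraries, where 27.6% of tested genes did, and none had both above, where 26.3% did. For AKG 2 genes were below (Slc10a4 and Chrna6), where 26.4% of tested genes were, and 2 above (Chrna4 and Kcnj6), where 26.0% were. For the combined group 3 were below (Slc10a4, Chrna6 and Chrnb3), against 20.5%, and 1 above (Chrna4), against 21.3%. With 7 genes, these counts are not read as a result about the set. At an unadjusted limma p under 0.05, 2 of the 6 tested genes, Slc10a4 and Chrna6, were lower in each of the 3 comparisons, and none was higher. The shares of all tested genes lower by that rule were 7.54% for vector, 7.19% for AKG and 5.19% for combined, and the shares higher were 9.27%, 10.5% and 8.71%. The shares called by adjusted p were 0% of tested genes for vector, 0.00729% for AKG and 0% for combined. The median difference of the 6 tested genes was -0.35, -0.33 and -0.28, against -0.01 over all tested genes. These comparisons share the control libraries.

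Between the treated groups, no gene had both combined libraries above or below both vector libraries, where 12.9% and 11.4% of tested genes did. Slc10a4 had the largest difference of the 7, at 0.61 ± 0.31 (95% interval -0.12 to 1.35; limma adjusted p = 1.0). It was 0.096 without the second combined library and 1.13 without the first. The Chrna6 difference was 0.22, with an interval of -0.37 to 0.81. Against AKG, 1 gene, Slc10a4, had both combined libraries above, where 11.3% of tested genes did, with a difference of 1.02 ± 0.31 (0.28 to 1.76; limma adjusted p = 1.0). At an unadjusted limma p under 0.05, none of the 6 tested genes was lower or higher than in the vector group, where 0.459% and 0.897% of all tested genes were. Against AKG none was lower and 1, Slc10a4, was higher, where 0.423% and 0.714% were. By adjusted p, none of the 13716 genes was called in either comparison (0%).

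The interaction asks whether vector and AKG together differ from the sum of their separate differences. It was 2.42 ± 0.44 for Slc10a4 (95% interval 1.38 to 3.46) and 1.5 ± 0.35 for Chrna6 (0.66 to 2.33), each with a limma adjusted p of 0.537. The means of both genes were below control with either treatment alone and were not lower still with both. The log2(FPKM + 1) scale has a floor at 0, and the sum of the separate differences would put both genes at or below it. Their interactions could hardly be other than positive on this scale, so the sign is not read as a result. For Drd2, Chrnb3, Chrna4 and Calb1 the intervals included 0, as did that of Kcnj6 in the unfiltered fit. With control library 1 as the only control, the interactions of Slc10a4 and Chrna4 were 2.30 and -1.45. Without control library 1 they were 2.54 and -0.023. By unadjusted limma p under 0.05, 2 of the 6 tested genes had a positive interaction, where 3.62% of all tested genes did, and none a negative one, where 3.66% did. The 2 genes were Slc10a4 and Chrna6, to which the floor applies. By adjusted p none was called (0% of those tested).

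**Figure D4:**
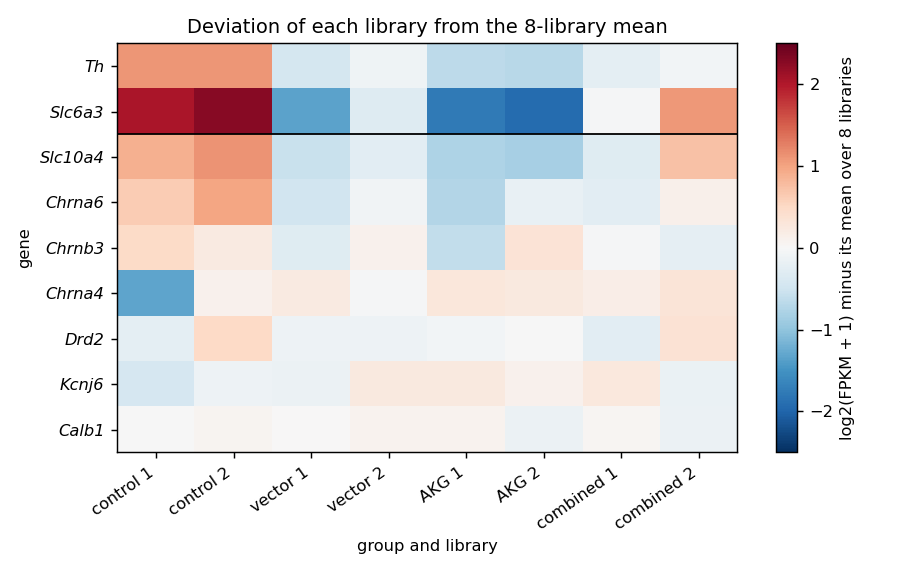
Log2(FPKM + 1) of each gene in each library minus the gene's mean over the 8 libraries (colour), with libraries on the x axis and genes on the y axis; Th and Slc6a3 stand above the line for reference. Slc10a4 and Chrna6 are above their means in both control libraries, as Th and Slc6a3 are, and Chrna4 is far below its mean in control library 1.

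The 7 genes did not share 1 pattern over the libraries. Pearson correlations of log2(FPKM + 1) over the 8 libraries were 0.909 for Slc10a4 with Chrna6, 0.713 for Chrna6 with Chrnb3 and 0.544 for Drd2 with Slc10a4 (0.858 without control library 1). Chrna6 had a correlation of 0.934 with Th. The 3 genes most like each member were picked from a pool of 12041 protein-coding genes. For Slc10a4 they were Ephx4 (0.985), Slc6a3 (0.981) and Mrpl44 (0.980), so the dopamine transporter was among them. Those most like Chrna6 were Cygb (0.984), B4galt4 (0.974) and Mrpl32 (0.971). Those most like Chrna4 were Brsk2 (0.999), Nacc2 (0.998) and Arhgap44 (0.998), all low in control library 1. Drd2 was most like Cap1 (0.983), Snap47 (0.978) and Slc9a3r2 (0.974), and Chrnb3 most like Cep19 (0.974), Limd2 (0.965) and Atad1 (0.955). Calb1 was most like Tex10 (0.967), Susd2 (0.966) and Parm1 (0.954), and Kcnj6 most like Ago3 (0.975), Lats1 (0.971) and Stxbp5l (0.971). The 8 points share groups, depth and dissection, and each of the 7 genes had 3 genes at 0.954 or above.

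Other cell types in the dissection were checked by their markers. Of 22 dopamine neuron identity genes 16 were tested, with 10 below and 6 above control in each of the vector, AKG and combined groups, and Th was the 1 called gene, in the AKG group. Tenm1 was among those above, at 0.71 ± 0.26 and 0.83 ± 0.26 in the vector and AKG groups. At an unadjusted limma p under 0.05, 7 of the 16 were lower and 1 higher for vector, 5 and 2 for AKG, and 5 and 1 for combined. The shares of all tested genes were 7.54% and 9.27%, 7.19% and 10.5%, and 5.19% and 8.71%. The list's summed level was 474 and 589 FPKM in control and 413 to 592 elsewhere, so the groups overlapped. Abundant genes set this sum, of which Th and Slc6a3 were a small part. Its correlation over the 8 libraries was 0.861 with Drd2, 0.637 with Slc10a4 and 0.573 with Chrna6. Choroid plexus markers summed to 94.6 to 9492 FPKM and were highest in control library 1. Markers of noradrenaline and serotonin neurons, which also express Slc10a4, summed to 2.04 to 4.28 FPKM. Cholinergic neuron markers, of cells that express Slc10a4 too, summed to 25.3 and 26.2 FPKM in control and 18.9 to 27.9 elsewhere. Midbrain GABA neuron markers summed to 334 to 561, Purkinje cell markers to 87.4 to 148, and hippocampal and cortical excitatory neuron markers to 99.9 to 174 FPKM. Their part in the values of the 7 genes was not tested.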

How the data were processed

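Per the labels' protocols, RNA came from a column kit and went into SMARTer mRNA-seq libraries. GRCm38 and mm10 are named in the submitters' processing notes; the aligner, counter and strand setting are not stated there. The authors deposited FPKM values for 54532 genes in 8 libraries, with gene lengths and coordinates, per the file headers. FPKM times length gave whole multiples of 1 read for 100% of values (within 0.01), which gave the depth.

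The 13716 genes averaging 1 FPKM or more were put on a log2(FPKM + 1) scale, which understates changes of low genes. They were fitted with limma 3.58.1 in R 4.3.3 (1 mean per group, eBayes with trend, two-sided, Benjamini-Hochberg, threshold 0.05). It left 4 residual degrees of freedom (median prior 2.98). Limma's voom on the recovered reads, an alternative chosen after seeing the data, called 1 gene in the AKG comparison and 0 in the other 5. A count model was not the main test because the unit is FPKM. The genes and lists were chosen with earlier results of these data known. Named relatives are up to 4 tested genes per list with the smallest unadjusted p in the vector and AKG comparisons; 3 genes per member were named by Pearson correlation. The marker correlations, Chrna3, Chrnb4 and AC165271.1 were picked with their values in view. Alternatives covered filter, pseudocount, scaling, length, block and each library left out.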

Additional observations from a re-analysis of the deposited data

How the results depend on the processing

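With 2 libraries per group, the calls depended on single libraries. Without control replicate 2, so that the control library that stood apart was the only control, 3359 genes were called for vector against control, 3376 for AKG, 2916 for combined and 1369 for the interaction, and the lowest counts with 1 library left out were 0. A lone library is there assumed to vary like the other groups. Without a filter 5, 12, 4, 6 and 14 genes were called for vector, AKG and combined against control, combined against vector and combined against AKG. A pseudocount of 0.1 gave 2 genes for AKG and 1 for combined against control. Removing the length trend gave 0 for AKG. The cause was not tested. With a replicate block, 0 genes were called for AKG against control, so that Th (-1.79) was lost; in this balanced design a block changes no estimate, only its error. Deviations of same-numbered libraries from their group means correlated at -0.32 to 0.34 between groups, highest for AKG with combined. With 2 libraries per group, each gene has 1 such deviation per group, so this cannot decide whether the numbers pair libraries.

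Slc10a4 and Chrna6 stayed below control in the 3 comparisons under the alternatives run. Of 677 alternative values of the 7 genes, 33 changed sign. With the length trend removed these were Calb1 for vector (-0.020) and the interaction (0.0062), and Drd2 for combined against control (0.046). Quantile normalization gave 0.0077 for Calb1 in AKG against control. Kcnj6 in combined against vector was -0.0048 with a pseudocount of 0.1 and -3.99e-05 with median-of-ratios scaling. With 1 library left out, Drd2 ranged over -0.62 to 0.13 (vector), -0.53 to 0.21 (AKG), -0.44 to 0.30 (combined), -0.13 to 0.48 (combined against vector), -0.22 to 0.39 (combined against AKG) and -0.040 to 0.70 (interaction). Calb1 ranged over -0.021 to 0.069, -0.17 to 0.051, -0.18 to 0.030, -0.21 to 0.0065, -0.13 to 0.090 and -0.15 to 0.067 in that order. Chrnb3 ranged over -0.23 to 0.17 (combined against vector), -0.46 to 0.49 (combined against AKG) and -0.0052 to 0.94 (interaction). Chrna4 ranged over -0.0034 to 1.43 (vector) and -0.10 to 0.049 (combined against AKG). Kcnj6 ranged over -0.22 to 0.22 and -0.34 to 0.098 in combined against vector and against AKG. A mean of at least 5 FPKM left Drd2, Chrna4 and Calb1. The interaction has no value with only the compared groups fitted. The planned edgeR alternative was not run.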
